A study of Mus musculus with 8 samples.

Results

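Claudins are membrane proteins that span the gap between neighbouring epithelial cells at tight junctions and set which ions and solutes pass between them. Some seal the junction and others form pores, so the set of claudin genes a cell uses fixes much of its barrier. In the lung the alveolar claudin Cldn18, with Cldn3 and Cldn4, keeps the air spaces dry. The 6 claudin genes described here are Cldn1, Cldn2, Cldn3, Cldn4, Cldn7 and Cldn18, out of 34 claudin genes and 32285 genes in the RNA matrix. They were chosen by name, with earlier results of these data known. Together they held 96.7% of all claudin UMIs (unique molecular identifiers, each standing for 1 RNA molecule read).

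The nuclei came from mouse alveolarspheres, cultures grown without serum or feeder cells from surfactant-making type II alveolar (ATII) cells of young and old mice. On day 9 the cells were given an AAV9 virus carrying Sox9 and Cre recombinase (Sox9-Cre) or Cre alone (Cre), and then 4 days of a medium that drives ATII cells toward flat type I (ATI) cells. All samples were nuclei of cells sorted for the red reporter tdTomato, so both arms had received Cre. Each nucleus gave RNA and, by ATAC, its open chromatin. The labels name 8 samples in 4 groups, a pair of RNA and a pair of ATAC samples for Sox9-Cre and likewise for Cre. The counts are in 1 pooled matrix per assay with 4 barcode prefixes, here libraries A, B, C and D. Since no label ties a prefix to a virus or an age, the viruses and ages are not compared, the pooled nuclei count as 1 sample, and values per library carry no p-value.

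After filtering, 7184 nuclei remained, with 1260, 760, 3236 and 1928 in libraries A to D and median depths per library between 9802 and 11728 UMIs. Libraries shared 20 barcodes, carried by 40 nuclei. ATAC depth differed more, with medians of 4405, 3776, 9609 and 13991.5 counts in peaks in libraries A to D. Nuclei were clustered without Sox9 and without any claudin gene, and clusters were named from marker lists that hold no claudin, giving 2176 ATII-like, 1129 ATI-like, 1549 transitional-like and 168 airway secretory-like nuclei. Transitional cells carry the keratins Krt8 and Krt18 and lie between both alveolar types. Nuclei with 5 or more Sox9 UMIs formed a class of their own, whatever their cluster, and are called Sox9-high (312 nuclei). Of these, 197 were in library C, 114 in D, 1 in A and 0 in B, and 204 lay in cluster 6 and 33 in cluster 5. Airway secretory-like nuclei were found in libraries C (73) and D (95), and all 12 ciliated markers also supported their cluster. Their median mitochondrial share was 8.81%, against 5.77% over all nuclei. The remaining 1850 nuclei (25.8%) stayed in unnamed clusters. ATII markers summed to 1193 per 10000 UMIs in ATII-like nuclei against 379 in ATI-like, 144 in transitional-like and 73.8 in airway secretory-like nuclei. Sox9-high nuclei held 295.7 per 10000 UMIs of ATII markers, 50.1 of ATI markers and 156 of transitional markers.

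A level is the count of a gene's UMIs in each 10000 UMIs of a class, and all intervals are 95% intervals that cover counting error only. Levels and shares are compared between classes for the same gene, not between genes, because UMI counts are not scaled by transcript length. A member was called higher or lower from 2-fold on against all other nuclei. Of the 6 members, 1 was called higher and 1 lower in Sox9-high nuclei (background over 16500 genes 7.01% higher and 4.52% lower), 1 and 2 in airway secretory-like nuclei (12.8% and 7.88%), and 1 and 1 in transitional-like nuclei (5.72% and 10.3%). In ATI-like nuclei 1 member was called higher and 3 lower (3.59% and 10.7%), and in ATII-like nuclei 0 were called higher and 3 lower (3.85% and 14.6%). Sox9-high nuclei were called higher for Cldn1, airway secretory-like nuclei for Cldn2, transitional-like nuclei for Cldn4 and ATI-like nuclei for Cldn18. All calls of Cldn1 and Cldn2, in either direction, rest on 73 and 46 UMIs in the whole matrix. A call needed at least 30 UMIs there. Cldn2 had 13 UMIs outside airway secretory-like nuclei, so it passed this minimum only through that class. It thus entered the counts above because of the class where it was high, and its calls lend those counts no support.

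**Figure D1:**
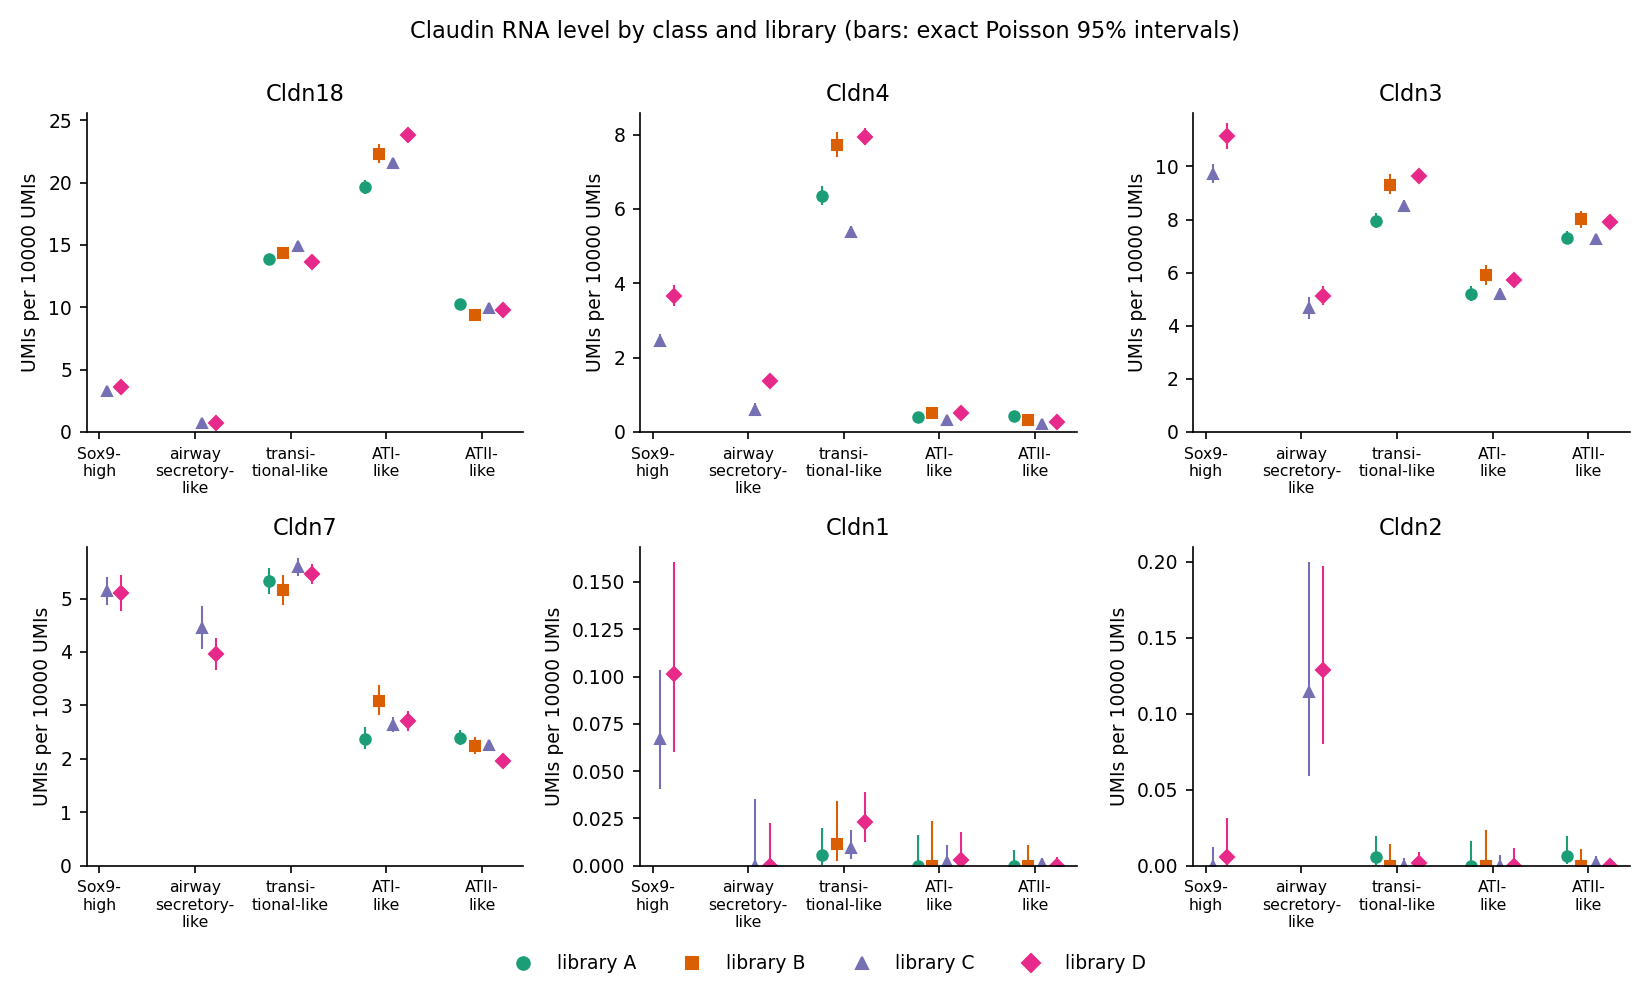
RNA level of each claudin gene (UMIs per 10000 UMIs, linear axes that differ between panels) in the 5 classes, one point per library with at least 20 nuclei in the class and exact Poisson 95% intervals. Cldn18 was between 19.6 and 23.8 in ATI-like nuclei and at most 3.62 in Sox9-high nuclei, and Cldn4 was between 5.38 and 7.95 in transitional-like nuclei.

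Cldn18, the claudin that seals the alveolar barrier in mice, had its highest level among the 5 classes in ATI-like nuclei. Its level there was 19.6, 22.3, 21.6 and 23.8 per 10000 UMIs in libraries A to D. In ATII-like nuclei it was 10.2, 9.41, 9.90 and 9.75 in the same libraries. No library overlapped between the 2 classes, and ATI-like nuclei stood 2.22-fold above ATII-like nuclei (interval 2.18 to 2.25, libraries 1.92 to 2.44). Transitional-like nuclei lay between them, at 13.8, 14.4, 14.9 and 13.6 per 10000 in libraries A to D. Against all other nuclei the ATI-like fold was 2.15 (2.12 to 2.19) and ranged from 1.66 to 2.51 over libraries. It fell to 1.75 when library D was left out and the remaining nuclei were clustered again, and to 1.96 without the nuclei with the highest doublet scores, both under the 2-fold threshold.

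Cldn18 was low in Sox9-high nuclei, at 3.25 per 10000 in library C and 3.62 in library D. All other nuclei of the pooled matrix held 12.2 per 10000, so the fold was 0.279 (0.266 to 0.293; 0.275 and 0.306 within the 2 libraries). The level in Sox9-high nuclei was 0.239 times that of transitional-like nuclei, 0.346 times that of ATII-like and 0.156 times that of ATI-like nuclei. The lowest Cldn18 level was in airway secretory-like nuclei, with 0.752 in library C and 0.737 in library D, a fold of 0.0614 (0.0532 to 0.0706) over all other nuclei, which was 0.237 at the lower clustering resolution and 0.275 with classes set by marker score. After each nucleus was thinned to 3000 UMIs, a Cldn18 UMI was seen in 32.7% of Sox9-high nuclei (27.5 to 38.2), 8.43% of airway secretory-like, 73.5% of transitional-like, 95.8% of ATI-like and 83.7% of ATII-like nuclei. Unthinned, these shares were 60.6%, 23.2%, 84.3%, 98.1% and 96.6%, at median depths of 14368, 14515.5, 11251, 9570 and 12724.5 UMIs. The lowest share was 8.43%, in airway secretory-like nuclei. Free RNA from broken cells can give UMIs in any nucleus, and doublets remain. Their part in these shares was not tested. The ATII gene Sftpc, which codes for surfactant protein C, stood at 21.7 per 10000 in airway secretory-like and 913 in ATII-like nuclei. Cldn18 UMIs numbered 3.42 per 100 Sftpc UMIs in airway secretory-like, 1.59 in Sox9-high, 14.3 in transitional-like, 6.84 in ATI-like and 1.08 in ATII-like nuclei.

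The Cldn18 level stepped down with the number of Sox9 UMIs in a nucleus. In library C it was 13.05, 9.55, 8.18 and 3.25 per 10000 in nuclei with 0, 1 to 2, 3 to 4 and 5 or more Sox9 UMIs, and in library D it was 13.06, 9.34, 6.18 and 3.62. The same order was seen inside the ATII-like clusters, from 10.4 to 6.76 per 10000 over the 4 steps in library C and from 10.3 to 7.45 in library D, where the upper 3 steps overlapped in their intervals. Inside cluster 6, which holds most Sox9-high nuclei, Cldn18 was 4.76 with no Sox9 UMI and 1.39 with 5 or more in library C, and 4.81 and 1.49 in library D, while the 2 middle steps did not differ beyond their intervals. Cluster 6 nuclei without a Sox9 UMI (48 in C and 22 in D) thus already held less Cldn18 than the ATII-like clusters. Nuclei with more Sox9 UMIs were also deeper, with medians of 10387, 12096, 12924 and 14552 UMIs over the 4 steps in library C. The part of depth in this order was not tested. Cldn4 over all nuclei did not step down in this way. It was 1.57, 1.91, 2.68 and 2.46 per 10000 over the 4 steps in library C and 2.63, 3.19, 3.27 and 3.66 in library D.

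**Figure D2:**
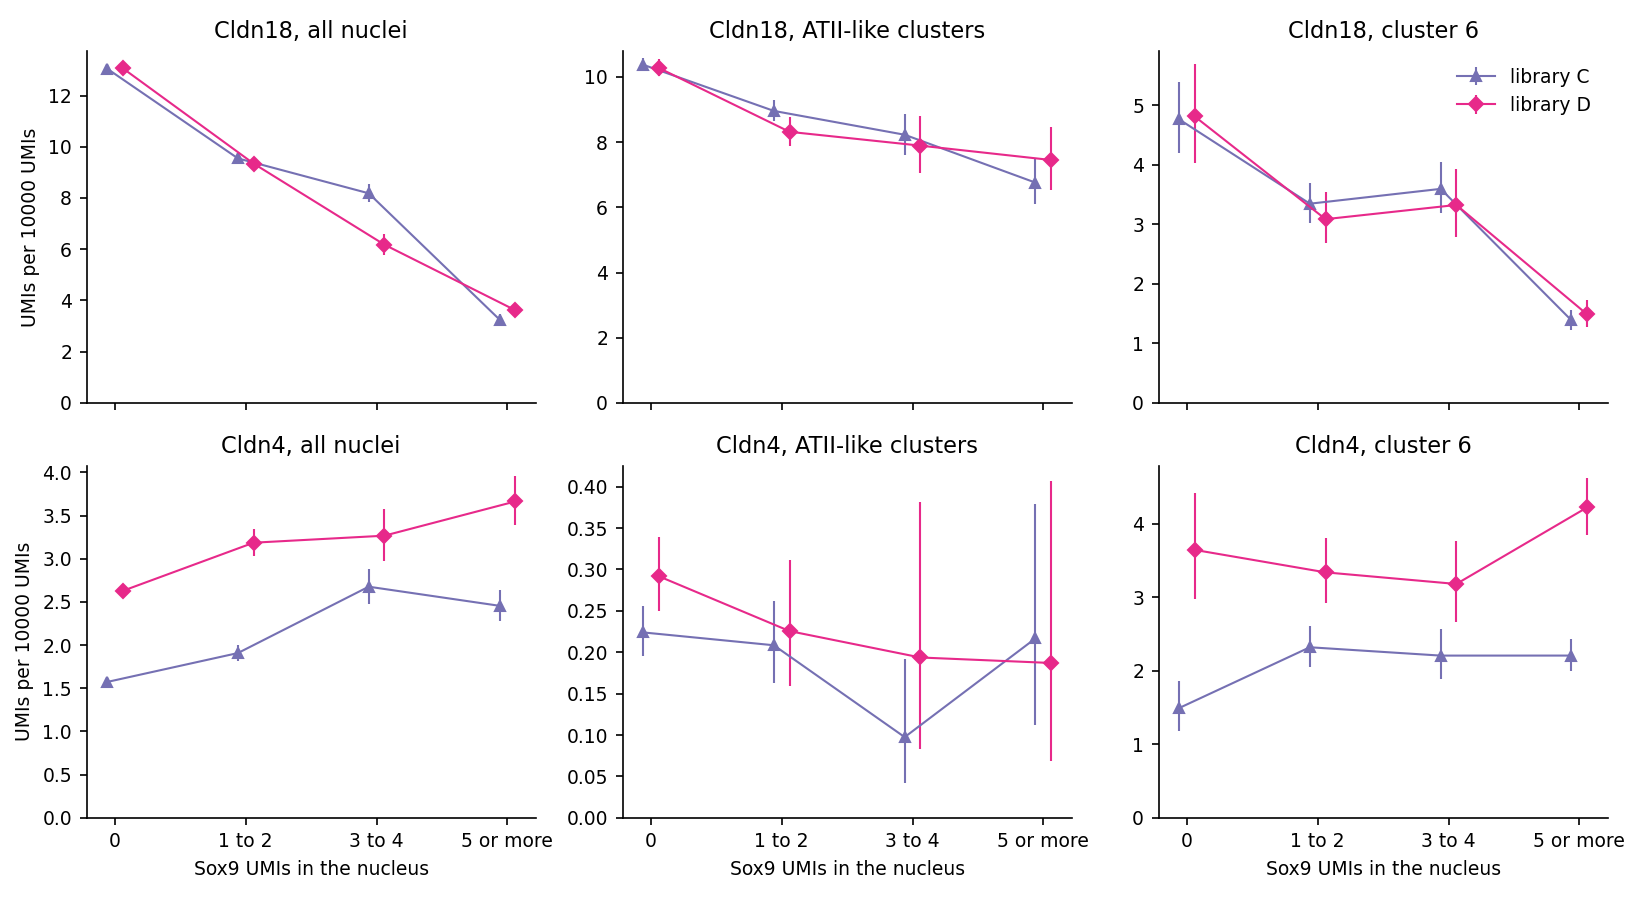
Cldn18 (top) and Cldn4 (bottom) levels in UMIs per 10000 UMIs, by the number of Sox9 UMIs in a nucleus, for libraries C and D in all nuclei, the ATII-like clusters and cluster 6, with exact Poisson 95% intervals. In all nuclei Cldn18 was 13.05 with no Sox9 UMI and 3.25 with 5 or more in library C.

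Cldn4, a sealing claudin known to rise in injured mouse lung, was the claudin of the transitional-like nuclei. Its level was 6.35, 7.73, 5.38 and 7.95 per 10000 in libraries A to D of that class. ATI-like nuclei held 0.390, 0.513, 0.334 and 0.499 and ATII-like nuclei 0.428, 0.313, 0.213 and 0.273 in the same libraries. No library of the transitional-like class came near either alveolar class. The fold of transitional-like nuclei was 16.2 over ATI-like (14.8 to 17.7, libraries 15.1 to 16.3) and 24.4 over ATII-like nuclei (22.7 to 26.2, libraries 14.8 to 29.1). These sizes depend on where the class borders lie. Clustered again without library C or D, the fold over ATI-like nuclei was 7.92 or 5.34, and with classes set by marker score it was 6.06. The fold over ATII-like nuclei was 47.6 and 53.8 at the lower and higher clustering resolution, 65.4 with at least 1000 UMIs per nucleus and 77.8 without the highest doublet scores. Over all other nuclei the transitional-like fold was 6.64 (6.44 to 6.83, libraries 5.77 to 9.19), and 66.0% of the 20049 Cldn4 UMIs lay in this class. Sox9-high nuclei were between, at 2.46 in library C and 3.66 in library D, which is 10.7-fold above ATII-like and 0.438 times the transitional-like level. Airway secretory-like nuclei held 0.600 in library C and 1.37 in library D. Over all other nuclei the Cldn4 fold was 0.160 in ATI-like nuclei, with 0.264 when library C and 0.451 when library D was left out, and 0.463 in airway secretory-like nuclei, with 0.284 when library D was left out and 0.840 at the lower clustering resolution, which is no longer a 2-fold difference. At 3000 UMIs per nucleus, a Cldn4 UMI was seen in 32.7% of Sox9-high, 19.3% of airway secretory-like, 69.2% of transitional-like, 9.16% of ATI-like and 6.43% of ATII-like nuclei. Unthinned, these shares were 52.6%, 46.4%, 88.3%, 23.9% and 18.7%. The ATII-like share was the lowest of the 5, and it pools clusters that differed in Cldn4.

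Cldn4 and Cldn18 were not exclusive. Among transitional-like nuclei thinned to 3000 UMIs, a Cldn18 UMI was seen in 72.4% of the 1045 nuclei with a Cldn4 UMI (69.6 to 75.1) and in 75.9% of the 465 without one (71.8 to 79.7). These intervals overlap, as they do in each of the 4 libraries. In ATII-like nuclei the shares were 95.6% of the 137 with a Cldn4 UMI (90.7 to 98.4) and 82.9% of the 1995 without (81.2 to 84.5). Within libraries A and D of ATII-like nuclei the intervals overlapped, and in C they did not. In Sox9-high, ATI-like and airway secretory-like nuclei the pooled intervals overlapped.

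The transitional-like class held 2 clusters that differed in Cldn18 but much less in Cldn4. In cluster 5 (605 nuclei, its Sox9-high nuclei included) Cldn18 was 4.71, 6.03, 4.21 and 4.17 per 10000 in libraries A to D. Cluster 2 (987 nuclei) held 18.3, 19.0, 20.1 and 18.9, close to the ATI-like level. The fold of cluster 5 over cluster 2 was 0.234 (0.226 to 0.243, libraries 0.210 to 0.317) for Cldn18. For Cldn4 it was 1.31 (1.27 to 1.36, libraries 1.15 to 1.45), with 7.88 per 10000 in cluster 5 and 6.01 in cluster 2. Cldn3 was 9.95 per 10000 in cluster 5 and 8.29 in cluster 2, and the Cldn7 fold was 0.954. Of the transitional markers, 16 of 20 supported cluster 5 and 13 of 20 cluster 2, and of the ATI markers 0 of 22 supported cluster 5 and 5 of 22 cluster 2. Sox9 itself was 0.895 per 10000 in cluster 5 and 0.245 in cluster 2. Among nuclei with no Sox9 UMI the gap was much the same, with Cldn18 at 4.95 in cluster 5 and 20.1 in cluster 2. The part of the other differences between the clusters was not tested.

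Within the ATII-like class, Cldn4 also split by cluster. Cluster 4 held 0.894, 0.542, 0.443 and 0.620 per 10000 in libraries A to D, against 0.0695, 0.148, 0.0740 and 0.110 in cluster 1. The fold was 6.29 (5.19 to 7.69), and Cldn18 was 1.49-fold higher in cluster 4 as well. Cluster 8, the smallest of the 3 with 367 nuclei, had 0.101 of Cldn4, close to cluster 1 at 0.0912. Its Cldn18 level of 5.88 was 0.673 times that of cluster 1 (libraries 0.588 to 0.807), so the ATII-like Cldn18 level pools clusters from 5.88 to 13.04 per 10000. All 3 levels of Cldn4 were under 1 per 10000. Cluster 4 was also the least firmly named of the 3. Of 20 ATII markers, 7 supported it, against 16 for cluster 1 and 19 for cluster 8.

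**Figure D3:**
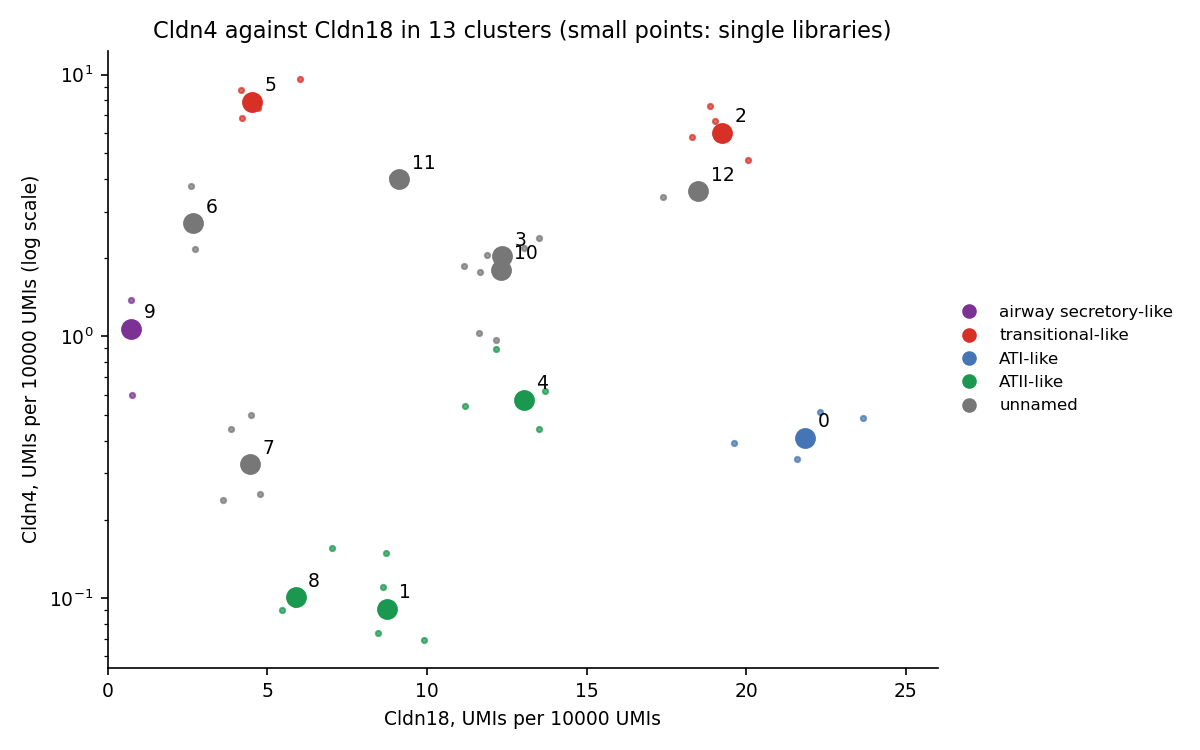
Cldn4 level (log axis) against Cldn18 level (linear axis), both in UMIs per 10000 UMIs, in the 13 clusters, with large numbered points for the pooled nuclei and small points for single libraries with at least 20 nuclei. Clusters 5 and 2 are both at the top for Cldn4, with 7.88 and 6.01, but stand apart on the Cldn18 axis, at 4.51 and 19.2.

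Cldn3, a sealing claudin of many epithelia, varied least among the 4 abundant members. Its level was 10.3 per 10000 in Sox9-high nuclei, 4.94 in airway secretory-like, 8.86 in transitional-like, 5.43 in ATI-like and 7.52 in ATII-like nuclei. No class passed the 2-fold threshold. The ATI-like level was 5.20, 5.89, 5.21 and 5.72 in libraries A to D, below the ATII-like level of 7.31, 8.00, 7.27 and 7.90 in each of them, a fold of 0.721 (0.702 to 0.742). The Sox9-high level of 9.73 in library C and 11.1 in library D was above that of every other class in the same library. At 3000 UMIs, the share of nuclei with a Cldn3 UMI was 87.8%, 66.9%, 84.2%, 68.7% and 85.1% in the same order of classes.

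Cldn7, which is also found along the lateral membrane below the junction, fell into a high and a low group of classes. It was 5.15 per 10000 in Sox9-high, 4.15 in airway secretory-like and 5.45 in transitional-like nuclei, against 2.67 in ATI-like and 2.20 in ATII-like nuclei. Transitional-like nuclei ranged from 5.15 to 5.60 over the 4 libraries, ATI-like nuclei from 2.38 to 3.09 and ATII-like nuclei from 1.97 to 2.39, so the transitional-like range stood clear of both. The transitional-like level was 2.04-fold the ATI-like (1.96 to 2.13) and 2.48-fold the ATII-like level (2.41 to 2.56). Sox9-high and transitional-like nuclei were close, with a fold of 0.945 (0.904 to 0.988). Over all other nuclei the ATII-like fold was 0.504 (0.490 to 0.518), just short of the 2-fold threshold. It passed that threshold under 8 of 14 other settings, with 0.432 as the lowest value.

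Cldn1, best known as a sealing claudin of the skin, and Cldn2, which forms a pore for cations and water, were rare. Of the 73 Cldn1 UMIs in 35 nuclei, 38 were in 12 Sox9-high nuclei, 20 UMIs in library C and 18 in D, and 26 were in transitional-like nuclei. The level was 0.0794 per 10000 in Sox9-high nuclei (0.0562 to 0.109) and 0.00420 in all other nuclei, a fold of 18.9 (11.6 to 30.8; 17.6 in library C and 14.7 in library D). It rested on few nuclei, since 1 nucleus alone held 13 UMIs and only 2.56% of Sox9-high nuclei had a Cldn1 UMI after thinning. By cluster, Sox9-high nuclei included, Cldn1 was highest in the transitional-like cluster 5, at 0.0423 per 10000 from 31 UMIs. Cluster 6 held 0.0371 from 26 UMIs. ATII-like nuclei had 1 Cldn1 UMI, ATI-like nuclei 2 and airway secretory-like nuclei 0, which allows a level of up to 0.0112 per 10000. Of the 46 Cldn2 UMIs, 33 (71.7%) were in 18 airway secretory-like nuclei, with 12 in library C and 21 in library D. That made 0.123 per 10000 (0.0848 to 0.173) in this class, against 13 UMIs in all other nuclei, a fold of 80.9 (41.5 to 168) that was 124 when library A and 48.5 when library B was left out. ATI-like nuclei had 0 Cldn2 UMIs, which allows up to 0.00249 per 10000, Sox9-high nuclei had 1, transitional-like nuclei 3 and ATII-like nuclei 6.

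The claudin make-up of the classes differed accordingly. All claudins together reached 23.1 UMIs per 10000 in Sox9-high, 13.3 in airway secretory-like, 36.3 in transitional-like, 31.1 in ATI-like and 20.4 in ATII-like nuclei. Cldn18 made up 14.8% of claudin UMIs in Sox9-high, 5.57% in airway secretory-like, 39.3% in transitional-like, 70.3% in ATI-like and 48.4% in ATII-like nuclei. Cldn4 made up 12.6%, 8.03%, 18.3%, 1.32% and 1.34% in the same order. Cldn3 made up 44.4% in Sox9-high and 17.5% in ATI-like nuclei. Cldn7 made up 22.3% in Sox9-high, 31.1% in airway secretory-like and 8.58% in ATI-like nuclei.

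**Figure D4:**
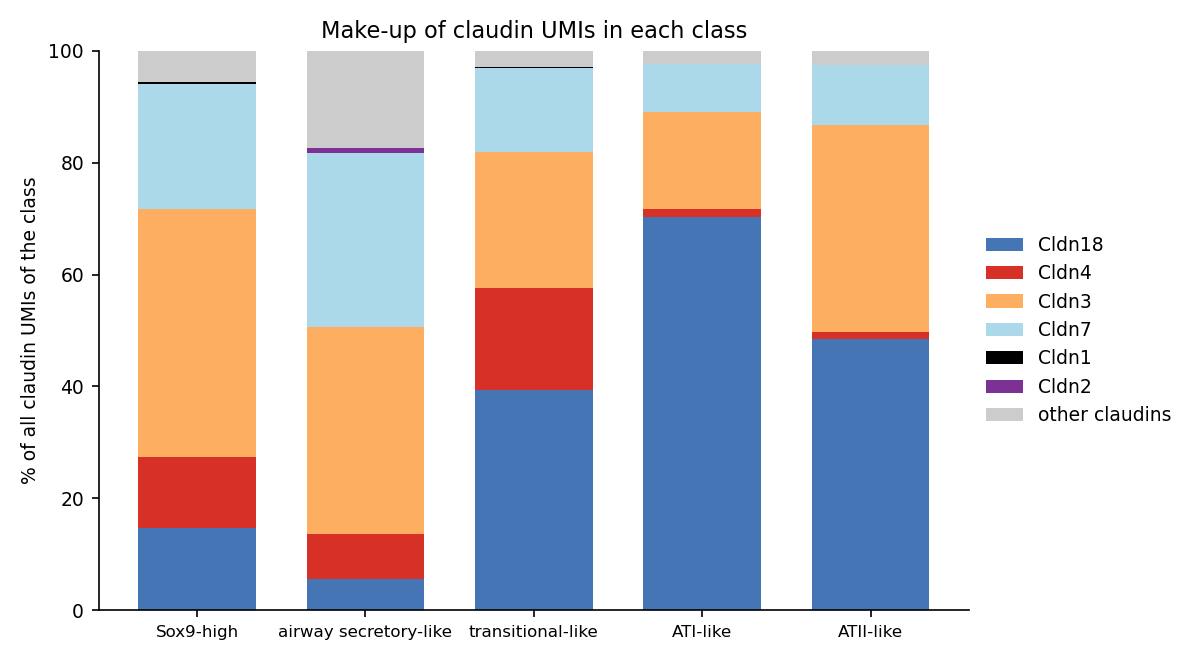
Share of each member and of all other claudins in the claudin UMIs of a class (% of claudin UMIs, stacked to 100), over the pooled nuclei of 5 classes. Cldn18 takes 70.3% in ATI-like and 14.8% in Sox9-high nuclei, and Cldn4 takes 18.3% in transitional-like and 1.34% in ATII-like nuclei.

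The open chromatin at these genes was read as counts in peaks that overlap the gene or the 2 kb on either side, per 10000 counts in all peaks, with a difference of 25% upward, or its inverse downward, as the threshold. Of the 6 members 5 could be read, since no peak lay within 2 kb of Cldn2. Of these 5, 0 were called higher and 0 lower in Sox9-high nuclei (background over 19441 genes 9.96% higher and 10.5% lower), 0 and 1 in airway secretory-like (15% and 18.4%), 1 and 0 in transitional-like (8.04% and 6.51%), 0 and 1 in ATI-like (3.77% and 10.7%) and 0 and 1 in ATII-like nuclei (5.95% and 8.49%). The calls were Cldn4, higher in transitional-like and lower in ATI-like and ATII-like nuclei, and Cldn18, lower in airway secretory-like nuclei.

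Cldn4 (chromosome 5, 134945123 to 134946934, minus strand, GRCm38) was most accessible in transitional-like nuclei, the class with the most Cldn4 RNA. Its window was 1.96-fold more accessible in transitional-like than in all other nuclei (1.81 to 2.12, libraries 1.86 to 2.21), 0.560-fold in ATI-like and 0.563-fold in ATII-like nuclei. Sox9-high nuclei stood at 1.14 (0.977 to 1.32). Airway secretory-like nuclei stood at 1.04 (0.810 to 1.31), although their RNA fold was 0.463. The peak over its start site (chr5:134946543-134947445) held 0.412, 0.448, 0.448 and 0.451 counts per 10000 in libraries A to D of transitional-like nuclei, against 0.254, 0.256, 0.274 and 0.257 in all other nuclei of the same libraries. No library overlapped, and the pooled fold was 1.68 (1.54 to 1.83). A second peak, past the end of the gene and centred 4051 bp downstream of the start (chr5:134942465-134943302), showed a wider contrast. It was 4.59-fold higher in transitional-like nuclei (3.76 to 5.62), 0.197-fold in ATI-like and 0.365-fold in ATII-like nuclei. Its counts were low, with 226 in transitional-like nuclei and 14 in ATI-like nuclei, and the transitional-like fold ranged from 3.30 to 10.4 over libraries. Sox9-high nuclei, which held more Cldn4 RNA than ATII-like nuclei, stood at 0.964 for this peak (0.610 to 1.46) and 1.17 for the start-site peak.

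Cldn18 (chromosome 9, 99690796 to 99717267, minus strand) has 2 listed start sites 7204 bp apart. A peak covered the downstream one (chr9:99709614-99710540) and none covered the upstream one. The peak at the downstream start was 1.51-fold higher in ATI-like nuclei (1.36 to 1.67, libraries 1.28 to 1.89), 0.600-fold in Sox9-high nuclei (0.602 and 0.626 in libraries C and D) and 0.159-fold in airway secretory-like nuclei. A peak past the end of the gene, centred 24695 bp downstream of the nearest start (chr9:99684915-99685822), was 0.383-fold in Sox9-high, 1.49-fold in ATI-like and 1.42-fold in ATII-like nuclei. In transitional-like nuclei it was 0.684 to 0.794 over libraries, although their Cldn18 RNA fold was 1.29. It was also 0.367-fold in cluster 5 over cluster 2 (0.297 to 0.451, libraries 0.280 to 0.485), and the start-site peak 0.560-fold. Both were thus lower where Cldn18 RNA was lower in this pair. The other peaks within 10 kb ranged from 0.503-fold to 1.77-fold (1.30 to 2.42) in it. In cluster 4 over cluster 1, where Cldn18 RNA was higher in cluster 4, the same peaks stood at 0.920 (0.819 to 1.03) and 1.03 (0.873 to 1.21). Over the classes, a peak outside the gene, centred at -2948 bp from the upstream start (chr9:99719757-99720673), ran opposite to the peak past the gene's end. It was 0.205-fold in ATI-like nuclei, 0.411-fold in ATII-like, 2.28-fold in transitional-like (libraries 2.17 to 2.73) and 2.06-fold in Sox9-high nuclei (1.81 and 2.15 in libraries C and D), from 63 counts in Sox9-high and 19 in ATI-like nuclei. Summed over the gene and 2 kb on either side, the fold was 1.24 in ATI-like (1.15 to 1.33), 0.808 in Sox9-high and 0.187 in airway secretory-like nuclei. With classes set by marker score, the fold in airway secretory-like nuclei was 0.629, a much smaller difference.

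**Figure D5:**
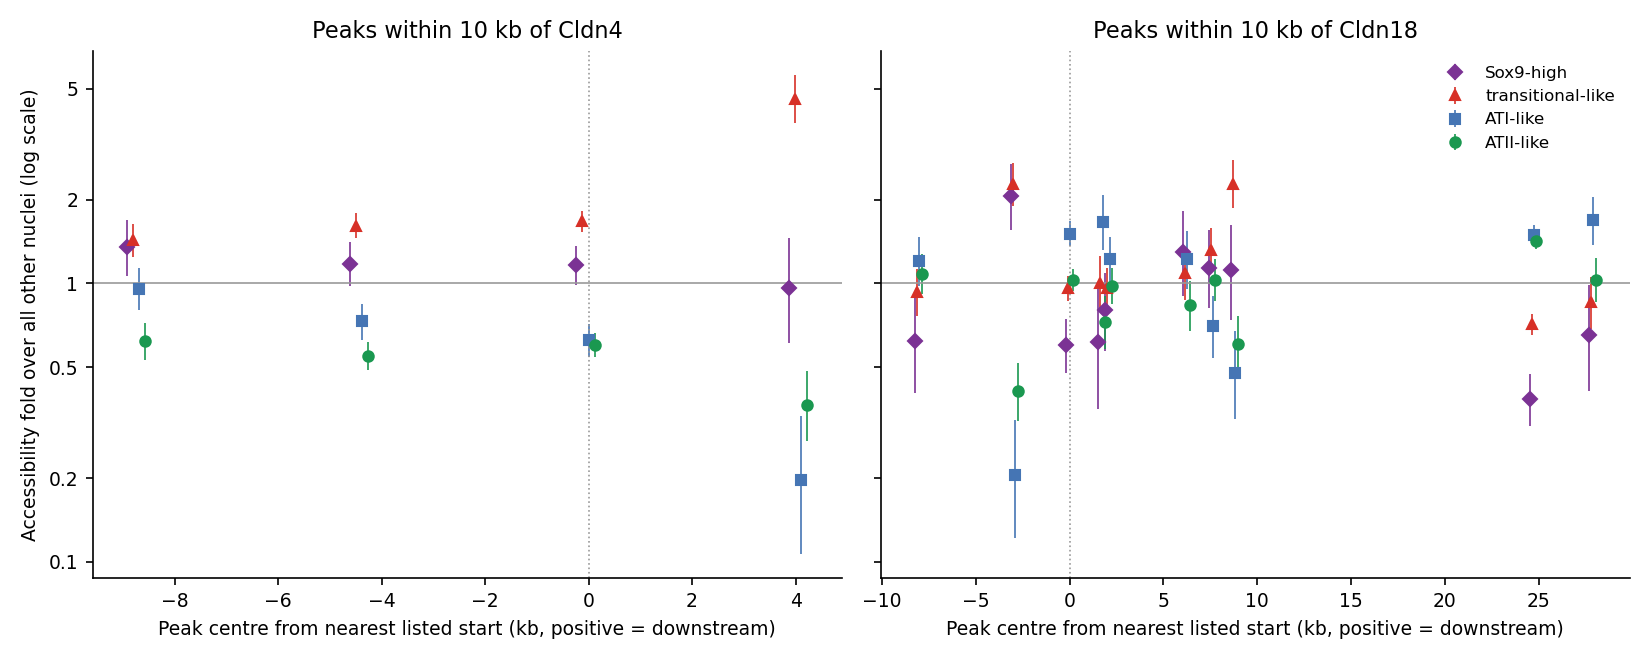
Accessibility fold of 4 classes over all other nuclei (log axis, exact 95% intervals) for each peak within 10 kb of Cldn4 (left) and Cldn18 (right), by the distance of the peak centre from the nearest listed start in kb, with points moved slightly sideways to keep them apart. The downstream Cldn4 peak reaches 4.59 in transitional-like nuclei, against 0.197 in ATI-like nuclei, and the peak upstream of Cldn18 is at 2.28 and 0.205 in the same classes.

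At Cldn3 and Cldn7 the start-site peaks did not follow the order of the RNA. The Cldn3 start-site peak (chromosome 5, 39279 bp from Cldn4) had folds between 0.798 in Sox9-high and 1.11 in ATI-like and ATII-like nuclei, opposite in order to the RNA of Sox9-high and ATI-like nuclei. The Cldn7 start-site peak (chromosome 11) had folds between 0.920 in transitional-like and 1.29 in airway secretory-like nuclei. Of these folds, the lowest for Cldn3 and the highest for Cldn7 passed the 25% threshold in the pooled nuclei. Within libraries C and D the Cldn3 fold in Sox9-high nuclei was 0.826 to 0.862, so it passed in neither. The Cldn7 fold in airway secretory-like nuclei was 1.22 to 1.45 within the same libraries. Peaks away from the starts differed more. A peak centred at -2773 bp from the nearest Cldn7 start was 2.63-fold in Sox9-high (2.01 to 3.38, 1.96 to 3.06 over libraries C and D), 1.53-fold in transitional-like and 0.477-fold in ATII-like nuclei. A peak 6584 bp past the Cldn3 start was 2.51-fold in Sox9-high (1.80 to 3.44), 2.81-fold in airway secretory-like and 0.614-fold in transitional-like nuclei. The single peak at Cldn1 (chromosome 16) had folds of 0.972 in Sox9-high (0.720 to 1.29) and 1.09 in transitional-like nuclei. The nearest peak to Cldn2 (chromosome X), centred at -2684 bp from its start, was 2.85-fold in airway secretory-like nuclei (1.44 to 5.11), from 12 counts.

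The promoter sequences are shown for the 4 abundant members, since each has a peak over a listed start whose folds are given above. Each runs from 250 bases before to 50 bases after a listed start in RefSeq's GRCm38.p6 annotation, in the direction of the gene, and all 6 members matched. Capitals mark matches, on either strand, to 7 motifs. The letters searched were TGANTCA for the stress and growth factor AP-1 and CCGCCC for the KLF family. For the SOX family, to which Sox9 belongs, they were ACAATG. For the epithelial GRHL factors they were AACNNGTT, and for the TEAD partners of YAP they were ACATTCC. For the lung factor NKX2-1 they were CTCAAG, and for the TATA box they were TATAAA. None of these matches overlapped. Of the 2 Cldn7 starts, the one inside the start-site peak is given.
Cldn4 (chr5:134946885-134947184, minus strand): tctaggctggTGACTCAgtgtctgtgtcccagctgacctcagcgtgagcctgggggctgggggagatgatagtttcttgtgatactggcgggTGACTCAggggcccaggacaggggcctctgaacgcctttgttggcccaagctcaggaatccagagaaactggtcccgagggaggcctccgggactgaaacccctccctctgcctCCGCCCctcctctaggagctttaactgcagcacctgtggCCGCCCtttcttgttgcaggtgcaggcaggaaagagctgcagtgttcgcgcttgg
Cldn3 (chr5:134985964-134986263, plus strand): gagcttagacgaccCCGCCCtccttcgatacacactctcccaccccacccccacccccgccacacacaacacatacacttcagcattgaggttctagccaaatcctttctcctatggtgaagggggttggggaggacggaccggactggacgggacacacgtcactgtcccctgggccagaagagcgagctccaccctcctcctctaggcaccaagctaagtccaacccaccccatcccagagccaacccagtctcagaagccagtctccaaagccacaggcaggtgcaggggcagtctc
Cldn18 upstream start (chr9:99717218-99717517, minus strand): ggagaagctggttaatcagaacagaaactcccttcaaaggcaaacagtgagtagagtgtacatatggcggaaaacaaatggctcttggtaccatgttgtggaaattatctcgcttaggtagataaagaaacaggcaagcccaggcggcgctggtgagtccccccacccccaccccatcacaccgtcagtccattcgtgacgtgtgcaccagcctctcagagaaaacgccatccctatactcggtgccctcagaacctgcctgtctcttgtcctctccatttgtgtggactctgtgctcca
Cldn18 downstream start (chr9:99710014-99710313, minus strand): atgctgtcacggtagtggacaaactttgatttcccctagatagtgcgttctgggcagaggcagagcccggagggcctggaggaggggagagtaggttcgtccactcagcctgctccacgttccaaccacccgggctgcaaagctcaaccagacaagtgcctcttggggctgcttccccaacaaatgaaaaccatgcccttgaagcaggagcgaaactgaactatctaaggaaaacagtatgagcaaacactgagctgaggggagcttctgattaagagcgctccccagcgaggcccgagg
Cldn7 (chr11:69965171-69965470, plus strand): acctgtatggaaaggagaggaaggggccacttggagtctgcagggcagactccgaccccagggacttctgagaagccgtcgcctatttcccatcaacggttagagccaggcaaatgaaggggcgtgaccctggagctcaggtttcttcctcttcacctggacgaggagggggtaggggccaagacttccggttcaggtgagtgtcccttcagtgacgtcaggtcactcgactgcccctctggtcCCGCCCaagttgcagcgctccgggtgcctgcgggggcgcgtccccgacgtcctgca

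Cldn4 held 2 AP-1 matches, whose first bases lay 240 and 158 bases before the start, and 2 KLF matches. At least 1 AP-1 match was found in 7.81% of 32851 promoters and at least 2 in 0.460%. KLF letters were in 35.7% of promoters, and Cldn3 and the printed Cldn7 promoter held 1 each. Neither Cldn18 promoter held any of the 7 runs of letters searched. Other forms of these motifs, such as other SOX letters, were not searched. A match is only a run of letters in this window and shows no binding.

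The other 28 claudin genes added little RNA. Of these, 10 had at least 30 UMIs, namely Cldn6, Cldn8, Cldn10, Cldn12, Cldn14, Cldn15, Cldn22, Cldn23, Cldn34c1 and Cldnd1, and 18 had fewer, 6 of them none. In airway secretory-like nuclei 5 of the 10 were called higher, in Sox9-high 2, in transitional-like 1, and in ATI-like and ATII-like 0, while 1, 1, 3, 1 and 6 were called lower in that order. Over all genes tested, 12.8%, 7.01%, 5.72%, 3.59% and 3.85% were higher and 7.88%, 4.52%, 10.3%, 10.7% and 14.6% lower in that order of classes, so a count of 1 among 10 genes is near the background. Cldn10, an ion-selective claudin of glands and kidney, was 1.34 per 10000 in airway secretory-like nuclei and 0.259 in Sox9-high nuclei, and at most 0.0184 in the other 3 classes. Cldn22 had 36 of its 37 UMIs in airway secretory-like nuclei, so it passed the minimum of 30 UMIs only through that class. Cldn6, known from embryonic epithelia, was 0.0857 in Sox9-high and 0.0949 in transitional-like nuclei, against 0.0258 in ATI-like and 0.0161 in ATII-like nuclei. Cldn14 had 12 of 32 UMIs in Sox9-high nuclei and likewise passed the minimum only through them. Both genes thus entered the counts above because of the class where they were high, and lend those counts no support. Cldn23 was 0.149 in airway secretory-like, 0.0824 in transitional-like and 0.00805 in ATII-like nuclei. Cldn12 differed little, from 0.171 in ATII-like to 0.234 in transitional-like nuclei.

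Claudins act with other junction proteins, and 3 lists of these were read in the same way. Of 11 membrane partners of claudins, 3 were called lower and 0 higher in ATII-like nuclei, with a median log2 fold of -0.60 against -0.18 over all genes tested, of which 14.6% were lower. Occludin (Ocln), the strand protein beside the claudins, was 1.34 per 10000 in transitional-like and 0.445 in ATII-like nuclei. Lsr, which recruits tricellular junction proteins, was 1.63 in transitional-like and 0.701 in ATII-like nuclei. Ildr1, of the same family, and Cxadr, an adhesion protein of the junction, were highest in airway secretory-like nuclei, at 0.627 and 3.86. Of 20 scaffold and polarity genes, 4 were called higher and 0 lower in ATI-like nuclei (median log2 fold 0.35 against -0.04 over all genes, 3.59% of them higher), and 4 were called lower in ATII-like nuclei (-0.73 against -0.18, 14.6% of all genes lower). In airway secretory-like nuclei 3 scaffold and polarity genes were called higher and 6 lower (-0.56 against 0.02), beside 12.8% and 7.88% of all genes. The scaffold Magi1 was 14.2 per 10000 in ATI-like, 5.80 in ATII-like and 1.85 in airway secretory-like nuclei, and the polarity gene Pard6b 0.801 in ATI-like and 0.266 in ATII-like nuclei. Amot, an angiomotin that binds the growth regulator YAP, was 0.188 in transitional-like and 0.0275 in ATII-like nuclei, and its relative Amotl1 was 0.959 in airway secretory-like and 0.190 in ATII-like nuclei. Of 16 genes of adherens junctions and desmosomes, 2 were called higher and 0 lower in Sox9-high nuclei (median log2 fold 0.20 against 0.03), beside 7.01% of all genes higher. Ctnnd1, the p120 catenin that holds cadherins at the membrane, was 8.26 in Sox9-high, 5.16 in transitional-like and 2.48 in ATII-like nuclei. The desmosomal cadherin Dsg2 was 0.498 in Sox9-high, 0.515 in airway secretory-like and 0.122 in ATII-like nuclei. The adhesion gene Nectin1 was highest in ATII-like nuclei, at 0.668, and Nectin4 in transitional-like nuclei, at 0.466.

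Likeness of pattern was described by Pearson's correlation of log2(level + 0.1) over 31 sums of a class in a library, among 8880 genes. These sums share libraries, nuclei classes and depth, so the values describe these data only. The genes closest to Cldn18 were Sparc (0.96), Ager (0.91) and Llgl2 (0.89), and those closest to Cldn4 were Krt18 (0.92), Krt8 (0.92) and Tnfrsf12a (0.91). Ager is an ATI marker and Krt18, Krt8 and Tnfrsf12a are transitional markers, so the class names rest on them. The same holds for the airway secretory marker Scgb3a2, named next. Cldn2 was closest to Cbr2, Retnla and Scgb3a2 (each 0.94), Cldn3 to Csnk2b, Eef2 and Atp6v0c (each 0.95), Cldn7 to Aprt, S100a11 and Hnrnpf (0.95, 0.95 and 0.94), and Cldn1 to Ctr9, Gng12 and Tubb2b (0.84, 0.79 and 0.79). Between members, Cldn3 and Cldn7 were most alike (0.86), followed by Cldn4 and Cldn7 (0.81), while Cldn18 and Cldn4 stood at 0.09 and Cldn18 and Cldn2 at -0.72. Airway secretory-like nuclei held 33 of the 46 Cldn2 UMIs. All correlations of Cldn2, the last included, therefore mostly set the sums of that class against the rest. Those of Cldn1 rest on 73 UMIs.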

How the data were processed

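Single-nucleus RNA and ATAC counts came from the same nuclei. Cell Ranger 6.0.1, Seurat 4.3.0, Signac 1.10.0 and the mouse build mm10 are named in the submitters' processing notes, with no role or order. Neither the peak caller nor an earlier filter on nuclei is named, so both stand as not given in the sources used here. The deposited values are raw UMI counts per gene and counts per peak, as the whole numbers in both matrices show, and the authors pooled all libraries in each matrix.

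Of 7224 nuclei, 25 were removed (under 500 UMIs, under 300 genes or 20% or more mitochondrial UMIs). Scrublet called 15 doublets (0.208%), which were removed, but at that share the caller is treated as not having worked, and doublets remain a limit. Nuclei were clustered with scanpy 1.11.5 and leidenalg 0.10.2 (2000 variable genes, 30 components, 15 neighbours, resolution 0.8), leaving out 35 genes, the claudins and Sox9. Classes were named from marker lists. Counts were summed per class and library, with exact Poisson, conditional and Clopper-Pearson intervals from scipy 1.17.1. These cover counting error only. A level for a count of 0 is limited by 3 counts. RNA calls needed 30 UMIs and 2-fold, accessibility calls 100 counts and a difference of 25%. The fold and interval code was tested on simulated data. No p-value was computed, because the 4 libraries carry no group.

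Members were named by the list. Junction genes were named as the 4 with the widest range over classes in each list among those with 300 UMIs, and like genes as the 3 highest correlations. The members and lists were chosen with earlier results of these data known. Positions and promoters are from RefSeq's GRCm38.p6 tables.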

Additional observations from a re-analysis of the deposited data

How the results depend on the processing

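No paired analysis was possible because no label ties the barcode prefixes to samples, and Sox9-Cre against Cre was not run for the same reason. Over other clusterings, filters, class rules and left-out libraries, the fold of Cldn4 in transitional-like nuclei stayed between 6.03 and 7.64, Cldn18 in Sox9-high between 0.214 and 0.294, and Cldn4 accessibility in transitional-like between 1.68 and 2.08. Cldn18 in ATI-like nuclei was 1.96 without the highest doublet scores, where 0 members were higher, and 1.75 to 2.31 with 1 library left out. The rare Cldn1 in Sox9-high ranged from 6.39 to 27.5 and Cldn2 in airway secretory-like from 32.6 to 124. Shares over all genes were found for the main setting only. The counts of members in this section thus have no background beside them, and show only which calls depend on the setting. Thinning to 3000 UMIs or a 100-UMI filter put Cldn1 and Cldn2 under a count minimum: members higher became 0 in Sox9-high and 0 in airway secretory-like, and members lower became 1 in ATII-like, 1 in ATI-like and 0 in transitional-like. Equal weight per nucleus gave 2 members lower in Sox9-high. Marker scores gave 2 higher and 0 lower in transitional-like, and Sox9-high by cluster gave 2 higher there. Resolution 0.4 and the 1000-UMI filter each gave 1 lower in airway secretory-like. With 1 library left out, members higher ranged from 0 to 1 in ATI-like and airway secretory-like and 1 to 2 in transitional-like, and lower from 1 to 2 in airway secretory-like and 0 to 1 in transitional-like. For accessibility, the 10 kb window gave 1 higher and 1 lower in Sox9-high, 2 lower in ATII-like, 1 higher and 2 lower in ATI-like and 2 higher in airway secretory-like. The gene alone gave 1 lower in Sox9-high, and 1000 counts in peaks 1 higher in airway secretory-like. With 1 library left out, accessibility calls ranged from 0 to 1 for higher in ATI-like and for higher and lower in Sox9-high, stood at 1 for higher and ranged from 1 to 2 for lower in airway secretory-like. Cldn1 accessibility in Sox9-high reversed, 0.718 to 1.32, the highest without library C, and Cldn3 accessibility in airway secretory-like reversed, 0.784 to 1.03, the lowest without library D. The cause of these changes was not tested. Depth limits what can be said of Cldn1 and Cldn2, with 73 and 46 UMIs in all.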

Other observations

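The unnamed clusters also differed in claudins. Cluster 6, with 204 of its 547 nuclei Sox9-high, held 2.68 UMIs of Cldn18 and 2.70 of Cldn4 per 10000. Cluster 7 held 2.09 of Cldn3 and 1.16 of Cldn7, the lowest of the 13 clusters for both genes, and all claudins together at 8.53. Its median depth was 6397 UMIs and its median mitochondrial share 8.12%, against 11108 UMIs and 5.77% over all nuclei, and their part in these levels was not tested. Cluster 3 held 12.3 of Cldn18 and 2.03 of Cldn4, and cluster 12, with 29 nuclei, 18.5 of Cldn18 and 3.59 of Cldn4. Cluster 11 held 9.13 of Cldn18 and 3.99 of Cldn4.

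Among Sox9-high nuclei thinned to 3000 UMIs, Cldn7 was seen in 80.4% of the 102 nuclei with a Cldn4 UMI (71.4 to 87.6) and in 62.9% of the 210 without one (55.9 to 69.4). In library D alone these intervals overlapped. The direction was not particular to Sox9-high nuclei. The shares were 84.4% and 63.4% in airway secretory-like and 73.1% and 62.8% in transitional-like nuclei. They were 60.6% and 46.3% in ATI-like and 57.7% and 42.0% in ATII-like nuclei.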
